A study of Mus musculus with 43 samples.

Results

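The Hox cluster genes were followed in testicular cells of young mice with and without the arginine methyltransferase Prmt1. Members were the protein-coding genes of GENCODE vM21 whose symbol is Hoxa, Hoxb, Hoxc or Hoxd followed by a number, which gave 39 of 21938 protein-coding genes outside the mitochondrial chromosome. Of these, 11 lie in the Hoxa cluster on chromosome 6, 10 in Hoxb on chromosome 11, 9 in Hoxc on chromosome 15 and 9 in Hoxd on chromosome 2. Hox genes encode homeodomain transcription factors that give cells a position along the body axis, and within a cluster the genes stand in the order of their paralog group, with low numbers used toward the head and high numbers toward the tail and the urogenital tract. Their DNA binding is sharpened by homeodomain cofactors of the Pbx, Meis and Pknox (Prep) families. In tissues where they are not used, Polycomb complexes hold the clusters silent, often with H3K4me3 still at the starts, while Trithorax-type complexes that contain Kmt2a or Kmt2b and Men1 keep them active elsewhere. In the testis, the somatic cells, which derive from the trunk mesoderm, are the familiar site of posterior Hox expression.

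All mice were of the C57BL/6J background. RNA was measured at postnatal day 7 (P7) in whole testis by bulk RNA-seq (3 WT and 3 Prmt1-dKO libraries) and in sorted spermatogonia by Smart-seq2 (2 and 2). Prmt1-dKO mice carried Ddx4-CreERT2 with 2 floxed Prmt1 alleles (Prmt1 lox/lox, exons 4 and 5). The labels give tamoxifen on 3 days for both genotypes, but name the WT mice of CUT&Tag only as C57BL/6J, and whether these received it is not stated. Ddx4 is a germ cell gene, so the Cre is driven in germ cells, and a GFP tag on the same allele was used for sorting. The controls of the sort, labelled WT, are described in the study's methods as Ddx4-GFP-CreERT2 with 1 floxed and 1 intact Prmt1 allele. Chromatin was profiled by CUT&Tag, in which an antibody-bound transposase cuts DNA beside a histone mark, in a tubule cell suspension that was not sorted. The study's methods enriched it for germ cells by digestion and straining, and describe it at P7 as nearly all germ cells. The 33 peak lists cover H3K4me3 (a mark of gene starts), H3K27ac (of active starts and enhancers), asymmetric dimethylarginine at H4R3, H3R2 and H3R8 (H4R3me2a, H3R2me2a, H3R8me2a), H4R3me1 and symmetric H4R3me2s, in WT mice at P7 and P14 and, for H4R3me2s at P7, also in Prmt1-dKO mice. The labels call the P14 samples spermatogonia in their titles and spermatocytes in the cell type field, and they call the whole testis libraries spermatogonia although total RNA of the testis was taken. The study describes its experiments in general as biological triplicates or more and the sorted libraries as biological duplicates, but neither it nor the labels say which animals gave each library. The p-values measure only the spread between these libraries, which may be technical.

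Library totals lay between 12396345 and 18547103 expected counts. Prmt1 was present in all 10 libraries. In whole testis it was at 651.86, 603.54 and 637.78 TPM (a level scaled for transcript length and library total) in WT and at 409.82, 433.02 and 402.21 TPM in Prmt1-dKO (log2 fold change -0.49 ± 0.13 SE, edgeR adjusted p = 0.0334, under 2-fold). In sorted cells it was at 349.79 and 239.09 TPM in WT and at 178.78 and 150.96 TPM in Prmt1-dKO (-0.88 ± 0.26 SE, adjusted p = 0.133). Both genotypes therefore kept reads of the gene, and exons outside the floxed pair are counted in these values. Germ cell markers summed to between 1615.36 and 1634.4 TPM in sorted WT and to between 2012.06 and 2044.78 TPM in sorted Prmt1-dKO cells. Macrophage markers (10 genes) and endothelial markers were at 0 in both sorted WT libraries, while the macrophage genes summed to 45.71 and 46.09 TPM in the sorted Prmt1-dKO libraries. Sertoli cell markers summed to 303.66 and 342.63 TPM in sorted WT and to between 448.55 and 625.57 TPM in sorted Prmt1-dKO, against 7754.97 to 8334.23 TPM in WT testis.

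In WT whole testis, Hox transcripts were led by the Hoxd cluster. The 39 genes summed to 157.4 ± 3.94 TPM (SD, n = 3), of which Hoxd genes held 95.7 ± 2.42, Hoxb genes 29.8 ± 5.3, Hoxc genes 24.99 ± 4.01 and Hoxa genes 6.85 ± 0.356. A mean of at least 1 TPM was reached by 20 of 39 Hox genes (2 Hoxa, 6 Hoxb, 6 Hoxc and 6 Hoxd), against 62.5% of the 21195 protein-coding genes matched in the RNA tables. Hoxd9, of the Abd-B class that patterns the posterior trunk and the limb, had the highest level with 43.86, 40.62 and 44.31 TPM. Hoxd8 followed with 26.2, 26.16 and 25.96 TPM, then Hoxb9 with 15.05, 13.3 and 15.45 TPM and Hoxd10 with 12.44, 12.57 and 12.64 TPM. Hoxd9 and Hoxd8 stood apart from each other and from the rest in every library, whereas Hoxb9 and Hoxd10 were closer but did not overlap. Hoxd4 had 10.11, 9.3 and 9.99 TPM and Hoxc6 8.54, 11.35 and 9.31 TPM, so these neighbours in the order overlapped. The next in order, Hoxc4 with 4.51, 4.86 and 4.58 TPM, Hoxb7 with 4.57, 2.73 and 5.45 TPM and Hoxc8 with 4.05, 4.0 and 3.13 TPM, each overlapped the neighbour in the order. Several members were nearly absent. Hoxa13, Hoxc11, Hoxc12, Hoxd12 and Hoxd13 at the posterior end, and Hoxd1 at the anterior end, did not exceed 0.19 TPM in any WT testis library. Hoxa6, Hoxc12 and Hoxd12 had no count in any of them. The other genes of the last paralog group were slightly higher, Hoxb13 at 0.38, 0.2 and 0.63 TPM and Hoxc13 at 0.28, 0.35 and 0.21 TPM. TPM is a level per transcript length, so these levels can be set against each other, but 23 of the 39 genes overlap another annotated gene, 14 of them one on the opposite strand and 11 another Hox gene. Whether the libraries keep strand was not found in the labels or methods, and reads of such pairs cannot be told apart without it.

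**Figure D1:**
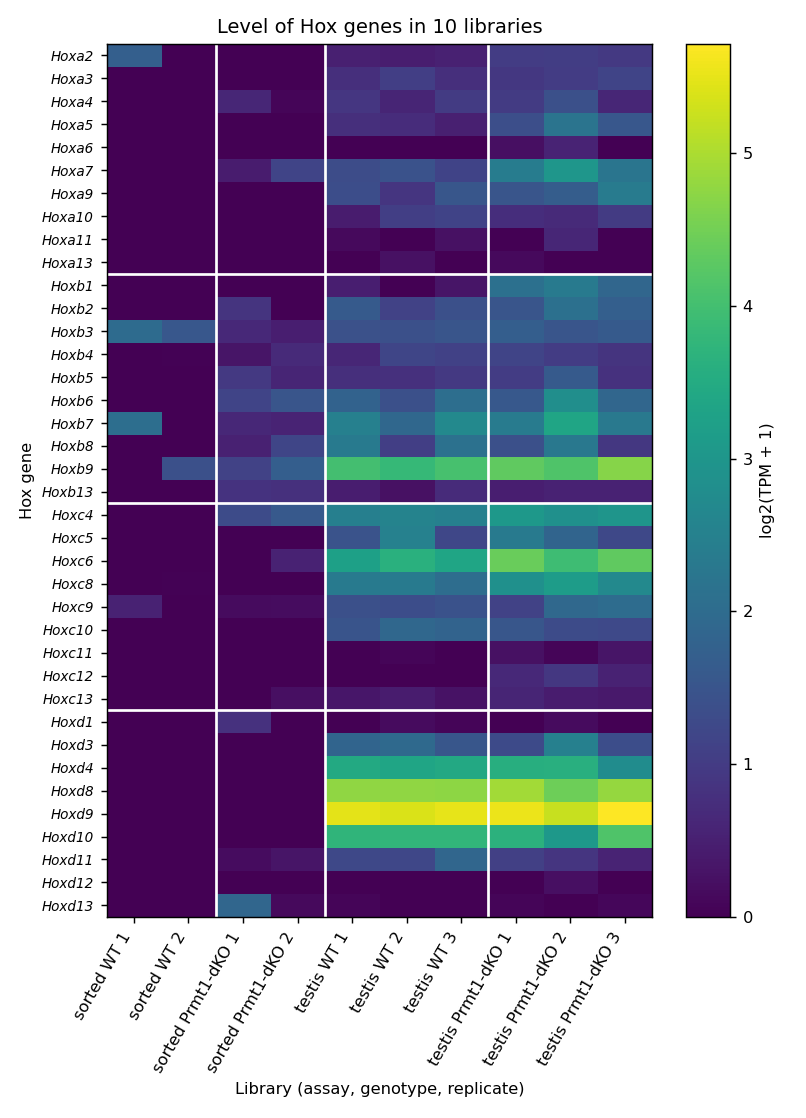
Level of the Hox genes shown (rows, by cluster and paralog group, white lines between clusters) in each of the 10 libraries (columns), as log2(TPM + 1). The Hoxd block is brightest in the 6 whole testis libraries, with Hoxd9 at 36.71 to 51.48 TPM, and is at 0 in both sorted WT libraries.

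The question put to the sorted cells was which of these transcripts the germ cells hold. Hox genes were almost silent in sorted WT spermatogonia. Their summed level was 8.96 and 3.65 TPM in the 2 libraries, and 3 of 39 genes (Hoxa2, Hoxb3 and Hoxb7) had a mean of at least 1 TPM, against 53.7% of all protein-coding genes. Hoxb3 was the single member with counts in both libraries, 79 and 50 (2.98 and 1.94 TPM). Hoxa2, a hindbrain gene, had 56 counts in the first library and 0 in the second, Hoxb7 had 53 and 0, and Hoxb9 had 0 and 52. Beyond these, Hoxb4 and Hoxc8 had 1 count each and Hoxc9 had 3. Such all-or-none counts between replicates mean that no level of Hoxa2, Hoxb7 or Hoxb9 can be given for these cells. All 9 Hoxd genes had 0 counts in both libraries, including those that lead in whole testis. At totals of 18547103 and 17788025 counts, a floor of 3 counts over both libraries puts Hoxd9 620.9-fold higher in WT whole testis, Hoxd8 439.9-fold and Hoxd10 150.6-fold. The same floor gives 107.2-fold for Hoxd4, 90.8-fold for Hoxc6 and 63.6-fold for Hoxc4. It covers counting error only and not losses such as those of Hoxa2, Hoxb7 and Hoxb9, so these folds are not strict lower bounds.

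Across all genes, WT sorted cells and WT whole testis were compared with edgeR; calls needed an adjusted p (Benjamini-Hochberg, FDR) below 0.05 and a change of at least 2-fold. Of 26 Hox genes with enough counts to be tested, 23 were lower in sorted cells and 0 higher, where 29.8% of the 16872 genes tested were called lower and 18.7% higher. Of the 26 genes, 20 had no count in sorted cells and passed the filter through their testis counts alone. These could only come out lower and all 20 were called, so the 23 calls are no support for a trait of Hox genes. Of the 6 with a count in sorted cells, Hoxb4, Hoxc8 and Hoxc9 were called. The 3 genes not called were Hoxb3, with 46, 49 and 57 counts in testis (log2 fold change 0.05 ± 0.37, FDR 0.921), Hoxb7 (-1.05 ± 1.73, FDR 0.639) and Hoxb9 (-4.02 ± 1.84, FDR 0.129). Hoxb3 was at 1.66, 1.62 and 1.82 TPM in WT testis and at 2.98 and 1.94 TPM in sorted WT cells. Cells, library method and control genotype all differ in this comparison and cannot be told apart. Of 9 cofactor genes, 4 were lower in sorted cells and 0 higher. Meis1 was at 16.84, 16.52 and 18.31 TPM in WT testis and at 0 in both sorted WT libraries. Meis2 and Meis3 were also called and also at 0 TPM there. These Meis genes could only come out lower, so their calls are no support for a trait of the cofactors. Pbx2, at 23.32 and 5.82 TPM in sorted WT cells, was called too. Among 11 tested regulators of the clusters, Gdf11, a secreted signal of axial patterning, was higher in sorted cells (log2 fold change 1.36 ± 0.32, FDR 0.0217). Kmt2b, the H3K4 methyltransferase (-1.55 ± 0.21, FDR 0.00417), the Polycomb subunit gene Pcgf2 (-1.54 ± 0.35, FDR 0.0186) and Cdx1, a homeobox activator of Hox genes, were lower. Cdx1 was at 0 TPM in both sorted WT libraries and could only come out lower.

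In whole testis, 8 Hox genes were higher in Prmt1-dKO than in WT and 0 were lower. Of 39 members, 29 had enough counts to be tested, and 5.32% of the 16554 genes tested were called higher and 1.78% lower. The called genes were Hoxa2, Hoxa5, Hoxa7, Hoxa9, Hoxb1, Hoxb2, Hoxc6 and Hoxc8. The summed level of the 39 genes was 157.4 ± 3.94 TPM in WT and 191.4 ± 5.65 TPM in Prmt1-dKO (SD, n = 3 each), and 26 genes reached a mean of 1 TPM in Prmt1-dKO against 63.5% of protein-coding genes. The difference lay in the Hoxa cluster, at 6.85 ± 0.356 against 14.9 ± 3.55 TPM, in Hoxc, at 24.99 ± 4.01 against 39.01 ± 2.85 TPM, and in Hoxb, at 29.8 ± 5.3 against 42.4 ± 6.02 TPM, while Hoxd was at 95.7 ± 2.42 against 95.1 ± 11.9 TPM. In bulk samples a change in the number of cells of a type and a change in RNA per cell cannot be told apart.

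Hoxb1, the hindbrain gene of rhombomere 4 that is known for autoregulation together with Pbx cofactors, had the largest change. Its counts were 3, 0 and 5 in WT and 55, 76 and 51 in Prmt1-dKO, and its level was 0.4, 0 and 0.26 TPM against 3.32, 4.09 and 2.72 TPM. Every Prmt1-dKO library lay far above every WT library (log2 fold change 4.63 ± 0.60 SE, FDR 0.00209). Hoxb1 had 0 counts in all 4 sorted libraries of either genotype. Hoxa5, known for lung and trachea patterning, had 11, 11 and 7 counts in WT and 23, 59 and 35 in Prmt1-dKO (2.19 ± 0.47, FDR 0.0135), and 0 in all sorted libraries. Hoxa7 had 23, 31 and 23 counts in WT and 67, 124 and 71 in Prmt1-dKO (1.97 ± 0.35, FDR 0.0064). The groups did not overlap for either gene, and the second Prmt1-dKO library was the highest for both. Hoxa2 had 6, 6 and 7 counts in WT and 14, 16 and 16 in Prmt1-dKO (1.43 ± 0.38, FDR 0.0299), and Hoxa9 23, 16 and 35 against 38, 54 and 80 (1.36 ± 0.36, FDR 0.0309). Hoxb2, a neighbour of Hoxb1 in the hindbrain code, had 29, 20 and 25 counts in WT and 39, 62 and 53 in Prmt1-dKO (1.23 ± 0.32, FDR 0.0277). These 3 genes rest on few counts, although their groups did not overlap either.

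Hoxc6 and Hoxc8, thoracic members, were better covered. Hoxc6 had 103, 136 and 121 counts in WT and 236, 187 and 274 in Prmt1-dKO, or 8.54, 11.35 and 9.31 TPM against 20.17, 14.35 and 18.97 TPM (1.12 ± 0.15, FDR 0.0024). Hoxc8 had 65, 68 and 57 counts in WT and 101, 142 and 108 in Prmt1-dKO (1.07 ± 0.24, FDR 0.0157). The annotated Hoxc5 gene spans Hoxc6, Hoxc8, Hoxc9 and Hoxc10 on the same strand, so the counts of these genes depend on how reads were split between them. With all 10 libraries in 1 fit, which share 1 estimate of the spread, none of the 8 genes was called, where 0.138% of all genes were called higher and 0.127% lower, and leaving out 1 library at a time gave 3 to 8 calls. There were 3 calls without WT replicate 2, 4 without WT replicate 1 or without WT replicate 3, and 5 without Prmt1-dKO replicate 2. The tested Hox genes numbered 29 to 31 in these fits. Of all genes, 684 of 17239 were called higher without WT replicate 2 and 699 of 17447 without WT replicate 1. The numbers were 793 of 17272 without WT replicate 3 and 1048 of 16971 without Prmt1-dKO replicate 2. Hoxb1, Hoxa7 and Hoxc6 were called under all of the other alternatives, their log2 fold changes ranging from 4.03 to 5.38, from 1.52 to 2.17 and from 1.03 to 1.18. Hoxa2 kept its call under 2 of its 12 alternatives.

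**Figure D2:**
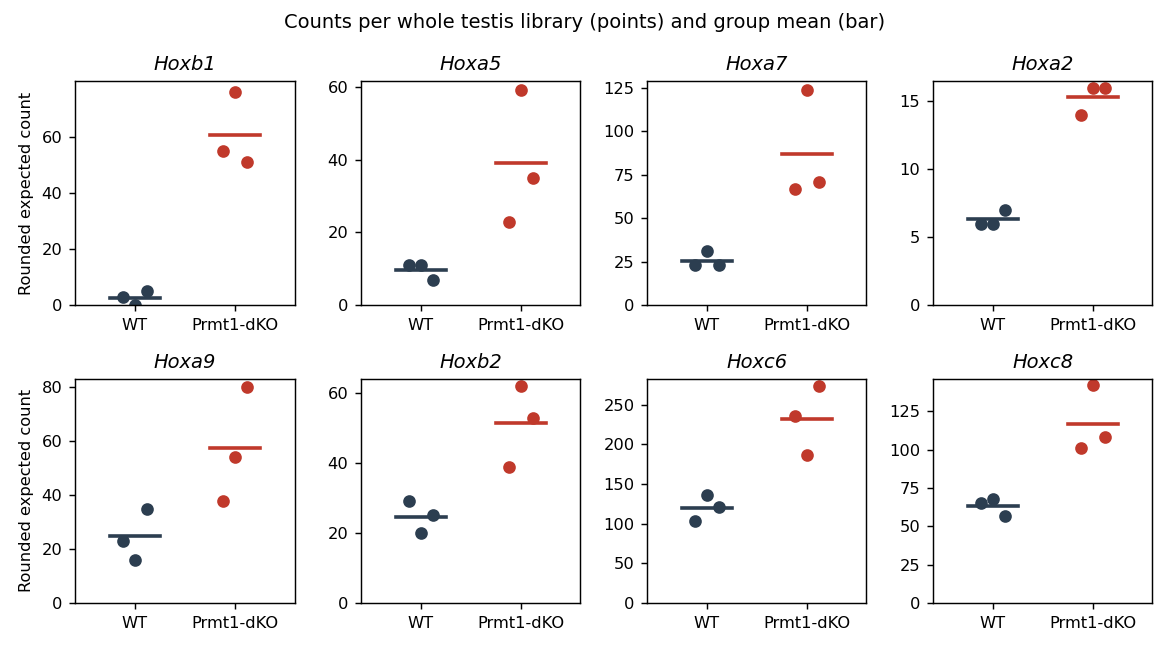
Rounded expected counts of the 8 called Hox genes in each whole testis library (points) with the group mean (horizontal bar), every axis starting at 0. No WT library reaches a Prmt1-dKO library in any panel, and Hoxb1 goes from 0 to 5 counts in WT to 51 to 76 in Prmt1-dKO.

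The promoter windows of 5 of these genes and of Hoxd9 are shown because the largest changes and the highest level fall on them. They run from 250 bases before to 50 bases after the RefSeq start on GRCm38.p6, on the gene's own strand; windows were held for 22 of the 39 genes (24 windows). Capitals mark the letters TGATNNAT, a Pbx-Hox composite, and TGACAG, a Meis site, searched on both strands with TAATTA, a homeodomain core, and TATAAA. In the Hoxb1 window, chr11:96365508-96365807 on the plus strand, TGATNNAT occurs as TGATGGAT, starting 162 bases before the start. In the Hoxa2 window, chr6:52164782-52165081 on the minus strand, TGATNNAT occurs in reverse complement 111 bases before the start and TGACAG 44 bases before it. The windows of Hoxa5 (chr6:52204538-52204837, minus), Hoxa7 (chr6:52218524-52218823, minus), Hoxa9 (chr6:52227321-52227620, minus) and Hoxd9 (chr2:74697513-74697812, plus) hold none of these letters. Hoxa7 and Hoxa9 have 5 annotated transcript starts each in GENCODE vM21, and a single window of each was searched.
Hoxb1: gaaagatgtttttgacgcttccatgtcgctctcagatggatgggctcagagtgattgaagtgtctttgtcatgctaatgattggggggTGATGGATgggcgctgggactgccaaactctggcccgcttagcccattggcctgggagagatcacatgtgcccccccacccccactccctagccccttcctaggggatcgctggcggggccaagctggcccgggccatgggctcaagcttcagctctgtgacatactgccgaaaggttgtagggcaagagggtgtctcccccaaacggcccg
Hoxa2: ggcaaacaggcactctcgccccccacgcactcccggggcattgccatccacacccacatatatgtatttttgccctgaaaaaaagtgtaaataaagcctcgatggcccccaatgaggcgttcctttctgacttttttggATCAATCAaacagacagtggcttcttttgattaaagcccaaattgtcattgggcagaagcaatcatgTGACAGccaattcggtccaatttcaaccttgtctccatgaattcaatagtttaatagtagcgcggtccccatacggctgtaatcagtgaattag
Hoxa5: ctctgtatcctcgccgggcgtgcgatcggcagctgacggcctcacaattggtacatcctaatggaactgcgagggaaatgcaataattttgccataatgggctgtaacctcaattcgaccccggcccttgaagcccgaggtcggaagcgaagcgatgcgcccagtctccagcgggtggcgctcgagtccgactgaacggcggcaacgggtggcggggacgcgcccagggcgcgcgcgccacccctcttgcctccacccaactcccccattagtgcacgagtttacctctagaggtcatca
Hoxa7: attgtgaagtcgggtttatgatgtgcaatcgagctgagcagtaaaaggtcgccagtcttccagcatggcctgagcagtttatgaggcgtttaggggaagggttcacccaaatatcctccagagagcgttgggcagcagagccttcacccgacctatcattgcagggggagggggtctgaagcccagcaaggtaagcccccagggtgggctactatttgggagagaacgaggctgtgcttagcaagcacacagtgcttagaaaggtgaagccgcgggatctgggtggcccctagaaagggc
Hoxa9: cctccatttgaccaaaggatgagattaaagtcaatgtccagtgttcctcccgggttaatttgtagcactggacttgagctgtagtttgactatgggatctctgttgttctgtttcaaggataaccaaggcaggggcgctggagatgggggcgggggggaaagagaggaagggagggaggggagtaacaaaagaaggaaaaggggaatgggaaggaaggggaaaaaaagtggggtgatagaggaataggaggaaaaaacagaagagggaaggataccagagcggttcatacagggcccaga
Hoxd9: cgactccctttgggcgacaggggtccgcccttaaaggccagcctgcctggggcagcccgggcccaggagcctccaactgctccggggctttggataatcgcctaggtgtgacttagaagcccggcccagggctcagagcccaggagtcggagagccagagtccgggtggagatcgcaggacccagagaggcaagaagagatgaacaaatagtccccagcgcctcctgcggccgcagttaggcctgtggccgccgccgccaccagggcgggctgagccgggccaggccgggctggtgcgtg
Among all 32851 RefSeq promoter windows of this length, 8.85% hold TGATNNAT, 19.2% TGACAG, 5.29% TAATTA and 13.6% TATAAA, and among the 24 Hox windows 4, 2, 2 and 4 do. A match of letters is a description and not a site. The windows are rich in CG steps, with a median of 14.5 per window (range 4 to 45) against 7 over all windows; Hoxa5 has 29, Hoxd9 20, Hoxb1 10, Hoxa2 and Hoxa7 9 each, and Hoxa9 4.

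The other tested members of Hoxa, Hoxb and Hoxc were not called. Hoxb9 had 328, 318 and 382 counts in WT and 400, 378 and 641 in Prmt1-dKO (15.05, 13.3 and 15.45 against 19.01, 16.75 and 24.75 TPM), with a log2 fold change of 0.61 ± 0.16 at FDR 0.0275, under 2-fold. Hoxc4 had 4.51, 4.86 and 4.58 TPM against 7.24, 6.25 and 6.88 TPM (0.70 ± 0.16, FDR 0.0183), also under 2-fold. Both were higher in every Prmt1-dKO library. Hoxb5 went from 0.71, 0.73 and 0.92 TPM to 1.01, 2.05 and 0.76 TPM (0.97 ± 0.42, FDR 0.135). Hoxc5, whose annotated body spans other Hoxc genes, had 1.74, 4.69 and 1.32 TPM in WT and 4.1, 2.59 and 1.37 TPM in Prmt1-dKO (0.96 ± 0.35 from counts, FDR 0.0884). Hoxa3 was at 0.71, 1.07 and 0.71 TPM against 0.9, 1.01 and 1.26 TPM, and Hoxa4 at 0.86, 0.51 and 0.98 against 0.99, 1.62 and 0.53 TPM. Hoxb2 had 2.08, 1.19 and 1.61 TPM in WT and 1.84, 3.3 and 2.3 TPM in Prmt1-dKO, so its levels per length overlapped where its scaled counts did not, as was the case for Hoxa9. Hoxb3 was at 1.66, 1.62 and 1.82 TPM in WT and 2.29, 1.82 and 2.08 TPM in Prmt1-dKO, and Hoxb4 at 0.54, 1.3 and 1.14 against 1.24, 1.02 and 0.81 TPM.

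Hoxb6 had 2.46, 1.65 and 3.18 TPM in WT and 1.98, 6.11 and 2.67 TPM in Prmt1-dKO, and Hoxb7 4.57, 2.73 and 5.45 against 4.19, 9.32 and 3.94 TPM. In both genes the second Prmt1-dKO library alone stood above the WT range. Hoxb8 was at 4.0, 1.1 and 3.36 TPM against 1.62, 3.89 and 0.9 TPM, and Hoxc9 at 1.63, 1.56 and 1.73 against 1.2, 2.79 and 3.03 TPM. Hoxc10, a lumbar gene, was at 1.78, 2.76 and 2.55 TPM in WT and 1.87, 1.49 and 1.4 TPM in Prmt1-dKO (-0.42 ± 0.29, FDR 0.347). None of these passed the test. Hoxa6, Hoxc12 and Hoxd12, which were not tested, had no count in WT testis. Hoxc12, with 4, 7 and 4 counts in Prmt1-dKO, was 5.79-fold higher against the floor of 3 counts over the WT group, which covers counting error only. Hoxa6 had 1, 3 and 0 counts and Hoxd12 0, 4 and 0 in Prmt1-dKO.

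Hoxd genes, which make up the bulk of Hox RNA in the testis, showed no call in either direction among 6 tested. Hoxd9 was at 43.86, 40.62 and 44.31 TPM in WT and 45.66, 36.71 and 51.48 TPM in Prmt1-dKO (log2 fold change 0.21 ± 0.12, FDR 0.26), and Hoxd8 at 26.2, 26.16 and 25.96 against 29.51, 20.75 and 27.11 TPM (0.14 ± 0.10, FDR 0.379). Hoxd10 was at 12.44, 12.57 and 12.64 TPM against 11.83, 7.2 and 16.73 TPM, and Hoxd4 at 10.11, 9.3 and 9.99 against 10.93, 11.12 and 5.9 TPM. The Prmt1-dKO libraries of these genes spread on both sides of the tight WT values. Hoxd3 had 2.6, 2.87 and 1.89 TPM against 1.44, 4.6 and 1.56 TPM, and it has an annotated start within 2 bp of one of Hoxd4. Hoxd11 was the member with the lowest log2 fold change, -0.60 ± 0.40 (FDR 0.332), at 1.37, 1.34 and 2.7 TPM against 1.12, 0.83 and 0.48 TPM. By cluster the median log2 fold change was 1.14 over 8 tested Hoxa genes, 0.65 over 9 Hoxb genes, 0.84 over 6 Hoxc genes and 0.11 over 6 Hoxd genes, beside 0.02 over all genes tested. A difference between clusters was not tested.

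**Figure D3:**
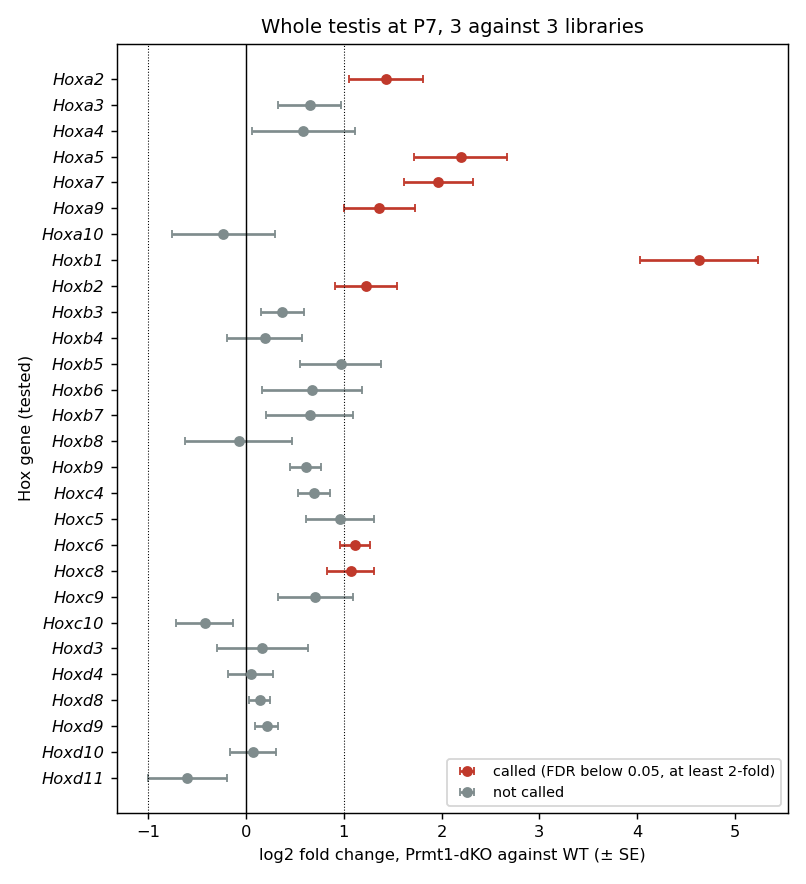
Log2 fold change of the tested Hox genes shown, in whole testis, Prmt1-dKO against WT, with the standard error from edgeR; red points were called, and dotted lines mark 2-fold. Hoxb1 lies at 4.63, the Hoxa genes reach 2.19, and the 6 Hoxd genes sit between -0.60 and 0.21.

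On counts scaled by TMM, 13 of the 29 tested Hox genes had every Prmt1-dKO library above every WT library and 0 had every one below, against 20.7% and 20% of all genes tested. On TPM, a scale added after seeing the data, the numbers were 8 and 1 (Hoxd11), against 12.4% and 26.4%, and Hoxa3, Hoxa9, Hoxb2, Hoxb3 and Hoxb5 overlapped. Other measures moved with genotype in the same libraries. Prmt1-dKO testis libraries had counts in 24019 to 24454 genes at totals of 12396345 to 15719731, while WT libraries had counts in 22300 to 22510 genes at totals of 15196883 to 16598249. Sertoli cell markers summed to 5503.05 to 5977.51 TPM in Prmt1-dKO against 7754.97 to 8334.23 in WT, Leydig cell markers to 406.13 to 444.5 against 907.49 to 1009.59, and peritubular and stromal markers to 1959.03 to 2166.82 against 2397.23 to 2516.27 TPM. Germ cell markers summed to 1579.32 to 1647.87 TPM in Prmt1-dKO against 1656.44 to 1931.45 TPM in WT. Macrophage, endothelial and red blood cell markers overlapped between the genotypes, the last at 2698.85 to 8342.31 against 3029.44 to 4701.77 TPM. Of the tested markers, 4 of 8 Leydig, 3 of 11 peritubular, 1 of 12 Sertoli and 1 of 9 macrophage genes were called lower and 1 Sertoli gene (Krt18) higher. Of 13 germ cell markers tested, 0 were called. Their part in the Hox values was not tested. None of 9 cofactor genes and none of 11 regulators was called by edgeR at 2-fold; at FDR below 0.05 but under 2-fold, Pknox2 was higher (0.35 ± 0.11), and Pknox1 (-0.51 ± 0.11), Ezh2, the Polycomb methyltransferase (-0.78 ± 0.12), and Gdf11 (-0.71 ± 0.18) were lower.

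In sorted spermatogonia more Hox genes were detected in Prmt1-dKO than in WT, but edgeR called none. The summed level was 13.33 and 13.64 TPM in Prmt1-dKO against 8.96 and 3.65 in WT, and 4 genes (Hoxb6, Hoxb9, Hoxc4 and Hoxd13) had a mean of at least 1 TPM in Prmt1-dKO, where 57.1% of protein-coding genes did. Each Prmt1-dKO library held counts of 17 Hox genes and each WT library counts of 4. Of 32 Hox genes with no count in WT, 10 (31.2%) had counts in both Prmt1-dKO libraries, among them Hoxa4, Hoxa7, Hoxb5, Hoxb6, Hoxb8, Hoxb13, Hoxc4, Hoxd11 and Hoxd13. Of the 7987 protein-coding genes with no count in sorted WT cells, 18.9% did so. Hoxc4 had 40 and 48 counts (1.47 and 2.03 TPM), 32.7-fold above a floor of 3 counts over the WT group. Hoxb6 had 21 and 28 counts (1.24 and 1.82 TPM, 18.2-fold) and Hoxb13, a prostate and tail gene, 24 and 19 counts (16-fold). Hoxa7 had 10 and 30 counts (14.9-fold) and Hoxb5 26 and 12 counts (14.1-fold). The floor covers counting error only, and for Hoxa2, Hoxb7 and Hoxb9 the sorted WT replicates differed by far more. These folds are therefore not lower bounds. Hoxd13, the most posterior Hoxd gene, was at 95 counts in 1 Prmt1-dKO library and 3 in the other, so its level (2.72 and 0.1 TPM) rests on 1 library.

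Hoxb3 and Hoxa2 had more counts in WT. Hoxb3 had 79 and 50 counts in WT and 14 and 16 in Prmt1-dKO (2.98 and 1.94 against 0.58 and 0.4 TPM), with no overlap between the genotypes (log2 fold change -1.77 ± 1.01, FDR 0.397). Hoxa2 had 56 and 0 counts in WT and 0 and 0 in Prmt1-dKO, which rests on 1 library. Hoxb7 had 53 and 0 counts in WT and 9 and 7 in Prmt1-dKO, and Hoxb9 0 and 52 against 38 and 66, so the replicates of WT contradict each other for both.

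Of 8 Hox genes tested in sorted cells, 0 were called in either direction, as were 0 of all 16443 genes (0% higher and 0% lower), and the smallest FDR of a Hox gene was 0.0774. At an unadjusted p below 0.05 and 2-fold, 6 were higher (among them Hoxa7, Hoxb5, Hoxb6, Hoxb13 and Hoxc4) and 0 lower, against 13.8% and 4.12% of all genes tested. These 6 had 0 counts in both WT libraries and passed the filter through their Prmt1-dKO counts alone, so they had to differ, and the counts of calls and of genes without overlap in this paragraph are no support for a change in Hox genes. DESeq2 called 1 Hox gene, Hoxc4, of 11 tested, while it called 7.28% of all genes higher and 3.9% lower. In 6 of the 8 tested genes neither WT library reached the lower of the Prmt1-dKO libraries and in 1, Hoxb3, the order was the reverse, against 36.4% and 20.3% of all genes tested. In 1 fit with all 10 libraries, 11 of 31 tested Hox genes were called higher and 1, Hoxb3, lower, against 17.9% and 4.48% of all genes. Without WT replicate 1, 7 of 13 were called higher, against 29.5% of all genes called higher and 12% lower. Without WT replicate 2, 8 of 15 were called higher and 1, Hoxa2, lower, against 22.5% and 11.2%. In the fits with 1 WT library left, the spread comes from the Prmt1-dKO pair, and the lone library is assumed to vary alike. Sorted Prmt1-dKO libraries also held counts of more genes in all, 20159 and 21350 against 15572 and 17069 in WT, at slightly lower totals. Their macrophage markers (8 tested, all higher by fold, 0 called) and red blood cell markers, 83.85 to 191.21 TPM against 24.25 to 29.96 TPM, were also higher. The macrophage markers were at 0 TPM in both sorted WT libraries, so the 8 tested could only come out higher. Peritubular and stromal markers summed to 26.22 to 31.26 TPM in Prmt1-dKO against 10.02 to 19.05 TPM in WT (9 tested, 6 higher by fold, 0 called), and endothelial markers to 1.04 to 1.09 TPM against 0. Their part in the Hox counts was not tested. Of the cofactors, Meis1 was at 0 in both WT libraries and at 0.23 and 0.69 TPM in Prmt1-dKO, and Meis3 at 0 and at 1.47 and 1.04 TPM; none of 7 tested was called.

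The genotype difference was then compared between sorted cells and whole testis in 1 fit. Of 31 Hox genes tested, the difference was more positive in sorted cells for 9 (among them Hoxa7, Hoxb4, Hoxb5, Hoxb6, Hoxb8, Hoxb13, Hoxc4 and Hoxd11) and more negative for 1, Hoxb3, against 14.7% and 4.24% of the 19608 genes tested. By the same test the difference was more positive for 8 of 10 macrophage, 4 of 6 endothelial and 6 of 13 Sertoli markers. Of 11 peritubular and stromal markers it was more positive for 6 and more negative for 2. For germ cell markers 3 of 14 were more positive (Nanos2, Sall4 and Tdrd1), as were 2 of 8 Leydig and 2 of 5 red blood cell markers. The macrophage and endothelial markers were at 0 TPM in both sorted WT libraries, so their difference in sorted cells could not be negative. The part of these cells in the Hox values was not tested. Leaving out 1 testis library at a time gave 5 to 8 calls, with 5 without testis Prmt1-dKO replicate 1. In that fit 2146 of 19407 genes were called higher and 672 lower. There were 6 calls without testis Prmt1-dKO replicate 3, testis WT replicate 1 or testis WT replicate 2. In these fits 2191 of 19314, 2043 of 19570 and 2060 of 19528 genes were called higher and 741, 547 and 570 lower. In 8 of the 9 genes more positive in sorted cells, all but Hoxb4, every sorted WT count was 0, so the fitted size depends on the treatment of zeros. The difference in sorted cells could not be negative for these 8, so the 9 calls are no support for a trait of Hox genes. Hoxb1, Hoxa5 and Hoxa9, called in whole testis, had no count in sorted cells of either genotype, so a difference between the assays could not be estimated for them.

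At the chromatin level, the share of Hox genes with H3K4me3 at a start was below that of all protein-coding genes at P7 and the same at P14, and none had H3K27ac in 2 lists. A gene was counted as marked when at least 2 lists of its group had a peak within 1000 bp of any of its transcript starts. At P7, H3K4me3 peaks lay at 21 and 17 Hox genes in the 2 lists, and 16 of 39 (41%) were marked in both (3 Hoxa, 2 Hoxb, 5 Hoxc and 6 Hoxd), against 59.6% of all protein-coding genes. At P14, 24 and 25 genes had a peak and 24 (61.5%) were marked (6 Hoxa, 3 Hoxb, 6 Hoxc and all 9 Hoxd), against 61.5%. At equal list length 15 (38.5%) were marked at P14, against 56.4%. H3K27ac peaks lay at 0 and 0 Hox genes at P7, with 0 marked against 28.1% of protein-coding genes, and at 4 and 3 genes at P14, none of them the same, with 0 marked against 45.8%. Among protein-coding genes marked by H3K4me3, 46.6% were also marked by H3K27ac at P7 and 72.9% at P14; of the H3K4me3-marked Hox genes, none was. The 7 Hox genes with an H3K27ac peak in 1 of the P14 lists were Hoxa4, Hoxb9, Hoxc6, Hoxd3, Hoxd4, Hoxd8 and Hoxd9, with fold enrichments between 3.31 and 4.17 in their own list. An exact permutation test of 2 lists against 2 could not reach a p below 0.333, and one of 3 against 3 could not go below 0.1, and no test was made on peaks. The number of reads behind each list is unknown.

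Over the whole clusters the share of bases under peaks was taken. From the first to the last member, the clusters measure 105291 (Hoxa), 173941 (Hoxb), 115750 (Hoxc) and 96833 bp (Hoxd). They hold 7.93 protein-coding genes per 100000 bp, against 0.805 over all assembled chromosomes, so the shares below are set against regions with far fewer starts. H3K4me3 peaks covered 3.24% ± 0.151 (SD, n = 2) of these bases at P7 and 4.33% ± 0.496 at P14, where they covered 0.596% and 0.741% of all assembled chromosomes. In Hoxd the covered share was highest, at 5.67% ± 0.192 and 7.67% ± 1.03, and in Hoxa it was 2.33% ± 0.189 and 4.47% ± 0.61. H3K27ac covered 0.0505% ± 0.0092 of the clusters at P7, from 1 peak in Hoxb in each list, and 0.277% ± 0.0035 at P14, below the 0.307% and 0.643% it covered of all chromosomes. Single H3K4me3 peaks at Hox starts were narrow for their lists, with a median width of 558.5 and 533.5 bp at P7, at percentile 33.05 and 33.45 of width. The widest at P14 lay at Hoxd9 in the first list, with 1570 bp, and at Hoxd8 in the second, with 1727 bp.

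H3K4me3 was then set beside RNA. Of the 16 Hox genes marked at P7, 15 had a mean under 1 TPM in sorted WT cells and 5 in WT whole testis, where the shares over all H3K4me3-marked protein-coding genes were 17.6% and 7.4%. Hoxd9, Hoxd8, Hoxd10, Hoxd4 and Hoxd3, with no counts in sorted WT cells, had H3K4me3 in both P7 lists. In the first list Hoxd4 had only the peak also counted for Hoxd3, chr2:74711964-74712524. At Hoxd9 peaks ran from chr2:74697681-74698351 and chr2:74698505-74699265 in the first list and over chr2:74698037-74699213 in the second. Since the profiled suspension was strained but not sorted, the cells that carry the mark cannot be told from these lists. Conversely, 9 of the 20 Hox genes with at least 1 TPM in WT testis were not marked at P7, against 12% of the 13252 protein-coding genes at that level. Of the genes higher in Prmt1-dKO testis, Hoxc6 was marked at P7, Hoxa5, Hoxb2 and Hoxc8 had a peak in 1 list, and Hoxa2, Hoxa7, Hoxa9 and Hoxb1 had none.

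**Figure D4:**
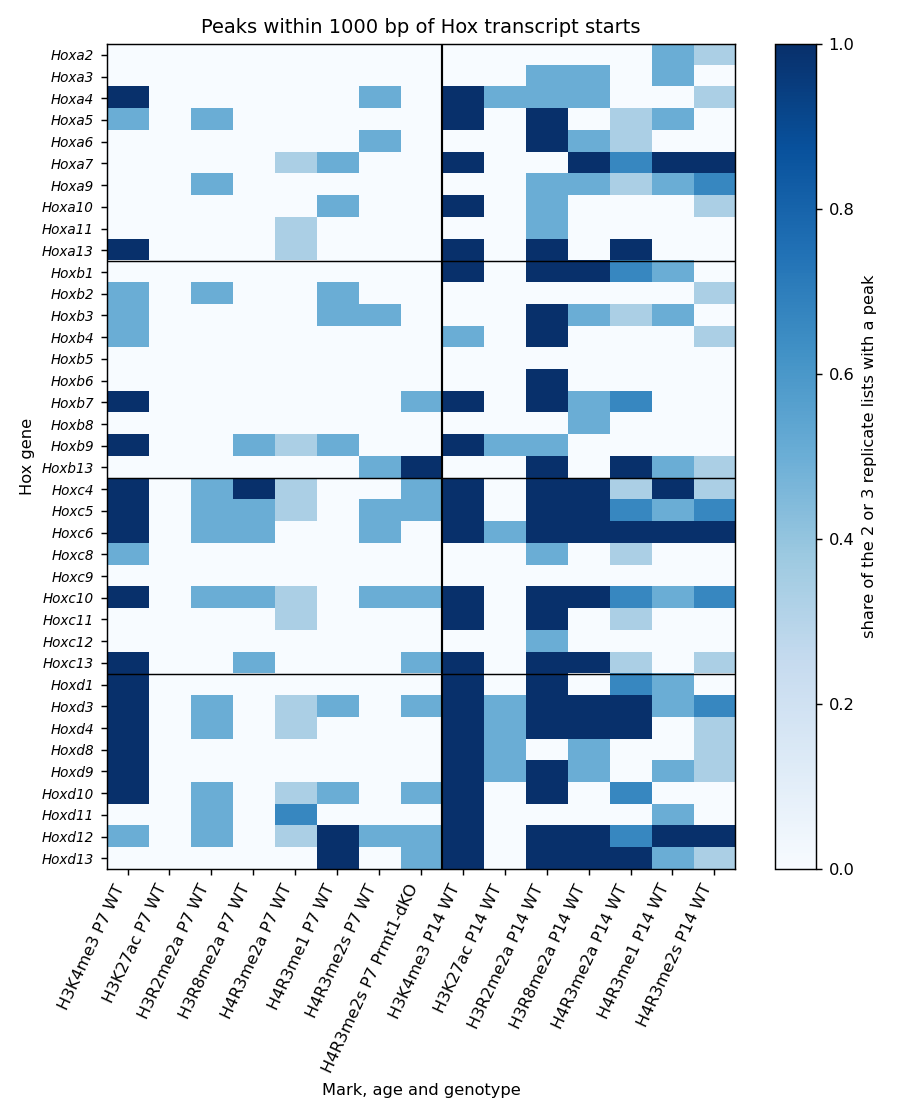
Share of replicate lists with a peak within 1000 bp of a start, for the Hox genes shown (rows) and each mark, age and genotype (columns; P7 left and P14 right of the vertical line). The H3K4me3 columns are filled for 6 of the 9 Hoxd genes at P7 and all 9 at P14, while the H3K27ac column is empty at P7 and never filled at P14.

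Few Hox genes had an arginine mark in 2 lists at P7. H4R3me2a, the main product of Prmt1 on H4, had a peak at 6, 7 and 2 Hox genes in the 3 lists (15.4, 17.9 and 5.13%), against 13.9, 14.9 and 15.02% of protein-coding genes. Only Hoxd11 was marked by it (10.4% of protein-coding genes). H3R2me2a had peaks at 6 and 7 genes (15.4 and 17.9%, against 18.2 and 17.4%), with 0 marked (7.2%), and H3R8me2a at 5 and 2, with Hoxc4 marked (7.12%). H4R3me1 had peaks at 5 and 7, with Hoxd12 and Hoxd13 marked (7.04%). H4R3me2s in WT had peaks at 5 and 3 genes, with 0 marked (14%), and in Prmt1-dKO at 4 and 7 genes, with Hoxb13 marked (6.6%). In the single lists of the last 3 marks, 5.13 to 17.9% of Hox genes had a peak, against 15.5 to 27.3% of protein-coding genes. The Hox share was the higher in the second H4R3me1 list (17.9% against 15.5%) and the second Prmt1-dKO H4R3me2s list (17.9% against 16.8%) and the lower in the others of these 3 marks. Lists of the same group thus mostly named different Hox genes. Of the P7 peaks of these 5 marks at Hox starts, 1 in an H4R3me2a list, 1 in an H4R3me1 list, 2 in a WT and 1 in a Prmt1-dKO H4R3me2s list had a q of at most 0.01, a value that 2.38 to 15.3% of all peaks in these lists reached. The median fold enrichment of the Hox peaks lay between percentile 18.8 and 84.7 of its own list. Over the clusters, WT peaks at P7 covered 0.697% ± 0.236 (H4R3me2a, n = 3), 1.08% ± 0.0431 (H3R2me2a, n = 2), 0.591% ± 0.0297 (H3R8me2a, n = 2), 0.885% ± 0.308 (H4R3me1, n = 2) and 0.517% ± 0.101 (H4R3me2s, n = 2) of the bases. Of all chromosomes, where genes are sparser, they covered 0.193, 0.218, 0.175, 0.256 and 0.278%. No effect of Prmt1 on H4R3me2s at Hox starts can be read from such lists, whose WT and Prmt1-dKO mice also differ in Cre and, as far as the labels say, in tamoxifen, which cannot be told apart from genotype.

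At P14 all arginine marks lay at more Hox starts in the lists as deposited, which were mostly longer. H3R2me2a had peaks at 25 and 29 genes and marked 23 (4 Hoxa, 6 Hoxb, 6 Hoxc and 7 Hoxd), or 59%, against 45.6% of protein-coding genes. Its peaks covered 5.59% ± 0.393 of the clusters (n = 2) and 0.711% of the chromosomes, and at equal length within the mark 2.65% ± 0.592 and 0.321%. H4R3me2a had peaks at 12, 16 and 16 genes and marked 15, or 38.5%, against 42%. H3R8me2a had peaks at 17 and 16 and marked 12 (28.8% of protein-coding genes), H4R3me2s at 13, 10 and 8 and marked 8 (29.8%), and H4R3me1 at 10 and 13 and marked 4, or 10.3%, against 25.8%. List lengths rose between the ages from 16802 to 18538 peaks to 39453 to 44695 for H4R3me2a and from 18692 and 20756 to 47824 and 55750 for H3R2me2a. With every list of a mark shortened to the length of the shortest, 10 Hox genes (25.6%) were marked by H3R2me2a at P14 and 8 (20.5%) by H4R3me2a, beside 27.5% and 27.7% of protein-coding genes. For genes marked in 2 lists, the excess of Hox genes over all genes for H3R2me2a was thus absent at equal length. In the single lists 13 and 16 of the 39 had a peak, beside 36.9% and 37.4% of protein-coding genes. The Hox share was the lower in the first list and the higher in the second. At P7 the counts at equal length were 0 and 1, beside 6.83% and 10% of protein-coding genes. H4R3me2s lists did not lengthen in the same way (19838 and 35939 peaks at P7, 18264 to 33622 at P14), and 5 Hox genes were marked at P14 at equal length and 0 at P7, beside 25.7% and 10.6% of protein-coding genes. At equal length H3R8me2a marked 5 at P14 and 1 at P7, beside 18.9% and 7.07%, while H4R3me1 marked 1 at P14 and 2 at P7, beside 21.7% and 6.69%.

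**Figure D5:**
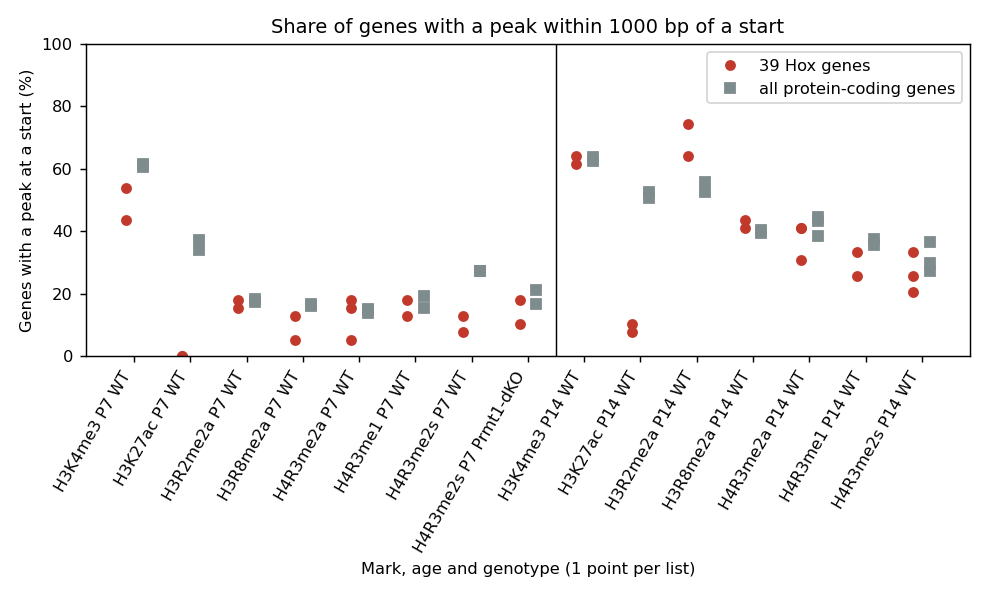
Percent of the 39 Hox genes (red) and of all protein-coding genes (grey) with a peak within 1000 bp of a start, 1 point per peak list. Hox points lie far below the grey ones for H3K27ac at both ages (0 to 10.3% against 34.1 to 52.7%) and above them for H3R2me2a at P14 (64.1 and 74.4% against 52.7 and 55.7%), in lists of unequal length. At equal list length, which is not plotted, 13 and 16 of the 39 Hox genes had a peak of H3R2me2a at P14. Beside 36.9 and 37.4% of protein-coding genes, the Hox share was then the lower in the first list and the higher in the second.

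Genes without a peak in any P7 list and with one in at least 2 P14 lists numbered 13 for H3R2me2a, 7 for H3R8me2a, 6 for H4R3me2a, 6 for H3K4me3, 4 for H4R3me2s, 2 for H4R3me1 and 0 for H3K27ac. The shares of all protein-coding genes were 22.8%, 12.5%, 19.1%, 1.73%, 6.94%, 10.2% and 7.84%. The 6 that gained H3K4me3 were Hoxa7, Hoxa10, Hoxb1, Hoxc11, Hoxd11 and Hoxd13. At equal list length the gains were 5 for H3R2me2a, 4 for H3R8me2a, 4 for H4R3me2a, 1 for H3K4me3, 3 for H4R3me2s, 0 for H4R3me1 and 0 for H3K27ac. The shares of all protein-coding genes were then 12%, 6.76%, 10.8%, 0.606%, 6.93%, 8.04% and 5.06%. The number marked by H3K4me3 at P14 was 15 at equal length (56.4% of protein-coding genes), so its difference between the ages depends on list length. Hoxb1 had no peak of any mark in the WT lists of P7 and was marked at P14 by H3K4me3, H4R3me2a, H3R2me2a and H3R8me2a. Its H3K4me3 peaks at P14, chr11:96365862-96366316 and chr11:96365801-96366523, begin near the downstream end of the promoter window printed above. Ages differ in cell composition, since meiotic cells arise between P7 and P14, and composition and list length cannot be told apart from a change in the cells themselves.

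Members differed widely in how many marks they carried. A peak near any start counted, and members differ in their number of annotated starts. Hoxd3 has 6, Hoxa7 5 and Hoxc6 3, but Hoxc10 and Hoxd12 have 1 each. Hoxa2 has 1, Hoxb2 and Hoxc8 have 2 each and Hoxa3 has 4. The part of this number in the marks was not tested. Hoxc6 and Hoxd12 had 6 of the 7 marks at P14 (all but H3K27ac), and Hoxa7, Hoxc5, Hoxc10 and Hoxd3 were among those with 5. Hoxc6 had a peak in 15 and Hoxd12 in 13 of the P14 lists. Hoxc5 and Hoxc10 have starts 647 bp apart and so share their windows, as do Hoxd3 and Hoxd4, so their marks are not separate observations. At the other end, 9 genes had no mark at P14 (Hoxa2, Hoxa3, Hoxa11, Hoxb2, Hoxb5, Hoxb8, Hoxc8, Hoxc9 and Hoxc12), and 20 had none at P7, where 32.4% and 38.6% of protein-coding genes had none. Hoxb5 and Hoxc9 had no peak in any WT list of either age, although both were detected in all 6 whole testis libraries. Among the 8 genes higher in Prmt1-dKO testis, Hoxa7 and Hoxc6 were among the most marked at P14 and Hoxa2, Hoxb2 and Hoxc8 among the unmarked.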

How the data were processed

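Members and gene lists were chosen with earlier results of these data known. RNA reads were trimmed by the authors (fastp 0.23.2), aligned to mm10 and counted per gene with RSEM, and the deposited tables hold expected counts, TPM and FPKM. Expected counts were rounded to whole numbers and tested with edgeR 4.0.16 in R 4.3.3 (quasi-likelihood test, TMM scaling, genes kept at a minimum count of 10 and a total of 15, FDR below 0.05 and at least 2-fold; for the interaction FDR below 0.05 alone). DESeq2 1.42.0 was an alternative. TPM, as deposited, gave levels; FPKM, as deposited by the authors, was not used in the tests. CUT&Tag peaks were called by the authors in each sample with MACS2 2.1.0 on mm10; the deposited lists hold fold enrichment and -log10 of p and q values, and no depth. A gene was marked when at least 2 lists had a peak within 1000 bp of an annotated start. Scripts were tested on simulated data. Named genes were Prmt1, Hox genes called in any test or with a mean of at least 1 TPM in any RNA group, Hox genes that a mark set apart from their cluster, and called cofactors and regulators. Hoxa6, Hoxa13, Hoxc11, Hoxc12, Hoxc13, Hoxd1 and Hoxd12 in the RNA comparisons, and Pknox1, Pknox2 and Ezh2 in whole testis, were named after their values were seen. Values of 1 member are not reported here and are left out of the plots by gene; counts over all members include it. Alternatives were other scaling, no count filter, a replicate block, leaving out each library, summits within 3000 bp, q of at most 0.01 and equal list length. Floors of 3 counts cover counting error only.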

Additional observations from a re-analysis of the deposited data

Results flagged for a closer look

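The genotype difference in sorted cells departed from that in whole testis for 10 Hox genes by edgeR's interaction test (FDR below 0.05). On the log2 scale, the difference in sorted cells minus that in whole testis was, among them, 7.84 for Hoxc4, 7.23 for Hoxb13, 7.02 for Hoxb6, 6.63 for Hoxb8, 6.35 for Hoxb5, 5.88 for Hoxd11, 5.45 for Hoxa7, 4.65 for Hoxb4 and -2.06 for Hoxb3. The positive values, apart from that of Hoxb4, come from genes with 0 counts in both sorted WT libraries, so their size is set by the treatment of zeros. Their difference in sorted cells could not be negative, so these calls are no support for a trait of Hox genes. Hoxb5, Hoxb6, Hoxb13, Hoxc4 and Hoxd11 kept the call under all 13 alternatives run. Hoxa7 kept it under 10, Hoxb4 and Hoxb8 under 8 each, and Hoxb3 under 4. The call of Hoxb3 was lost without any 1 of the 6 testis libraries, without either sorted Prmt1-dKO library and without the count filter.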

How the results depend on the processing

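No Hox gene called in its comparison, and none at an unadjusted p below 0.05 in sorted cells, changed direction under an alternative. The median over the Hox genes in the interaction went from 0.43 to -0.02 without the count filter, and without sorted replicate 2, Hoxa2 was called higher in WT sorted cells than in WT testis. In whole testis 8 Hox genes were called, with 8 under DESeq2, 0 with all 10 libraries in 1 fit and 3 to 8 when 1 library was left out. In sorted cells 0 were called, with 1 under DESeq2, 12 with all 10 libraries in 1 fit and 0 to 9 when 1 library was left out. The interaction gave 10 calls, where 14.7% of all genes were called higher and 4.24% lower. It gave 5 to 8 when 1 testis library was left out, an alternative chosen after seeing the data. In those fits 2043 to 2439 of all genes were called higher and 547 to 928 lower. WT sorted against WT testis gave 23 calls, and 20 without any 1 testis library, where 3925 to 3993 of all genes were called lower. Replicate numbers did not pair the libraries (correlations of same-numbered deviations 0.0825, -0.221 and -0.119 in testis, 0.0177 in sorted cells), and a replicate block gave 6 calls in testis and 0 in sorted cells. The median log2 change over all genes shifted with scaling from 0.22 to -0.08 (interaction), from 0.15 to -0.01 (sorted) and from -0.39 to -0.27 (WT sorted against testis) without TMM. On TPM, added after seeing the data, 8 Hox genes in place of 13 had every Prmt1-dKO testis library above every WT one. Sorted Prmt1-dKO cells had 10 Hox genes at a mean of 0.5 TPM; leaving out 1 library gave 2 to 3, 4 to 6, 20 to 22 and 23 to 25 genes at 1 TPM in sorted WT, sorted Prmt1-dKO, testis WT and testis Prmt1-dKO. For marks at P7, summits within 3000 bp gave 4 (H4R3me2a), 4 (H3R2me2a), 2 (H3R8me2a), 4 (H4R3me1), 2 (H4R3me2s WT) and 2 (H4R3me2s Prmt1-dKO) genes; at P14 they gave 10 (H4R3me1) and 2 (H3K27ac). With q of at most 0.01, P7 counts were 0 for H4R3me2a, H3R8me2a, H4R3me1 and H4R3me2s Prmt1-dKO, and P14 counts 3 (H4R3me2a), 8 (H3R2me2a), 3 (H3R8me2a), 0 (H4R3me1) and 0 (H4R3me2s). At equal list length H4R3me2s Prmt1-dKO gave 0 at P7, and P14 counts were 8 (H4R3me2a), 10 (H3R2me2a), 5 (H3R8me2a), 1 (H4R3me1), 15 (H3K4me3) and 5 (H4R3me2s). With 1 list left out, P7 counts were 0 to 1 (H4R3me2a), 6 to 7 (H3R2me2a), 2 to 5 (H3R8me2a), 5 to 7 (H4R3me1), 0 to 0 (H3K27ac), 17 to 21 (H3K4me3), 3 to 5 (H4R3me2s WT) and 4 to 7 (H4R3me2s Prmt1-dKO), and P14 counts 8 to 11 (H4R3me2a), 25 to 29 (H3R2me2a), 16 to 17 (H3R8me2a), 10 to 13 (H4R3me1), 3 to 4 (H3K27ac), 24 to 25 (H3K4me3) and 3 to 8 (H4R3me2s); where 2 lists make a group, the remaining list alone was counted. Cluster coverage by H3K4me3 at P14 was 3.18% at equal length, and by H3K27ac 0.0222% at P7 and 0.139% at P14 with q of at most 0.01 and 0.227% at P14 at equal length. With 1 list left out it was 3.13 to 3.34% and 3.98 to 4.68% (H3K4me3) and 0.0443 to 0.0571% and 0.2745 to 0.2786% (H3K27ac) at P7 and P14. Where a call changed, the cause was not tested.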
